A study of Mus musculus with 12 samples.

Results

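The 78 mitochondrial ribosomal protein genes described here are the rows of the 2 deposited count tables whose symbol starts with Mrpl or Mrps followed by a number and that held 10 or more counts over the 12 libraries. They were 78 of 26264 gene symbols, 49 with a large subunit symbol (Mrpl) and 29 with a small subunit symbol (Mrps). All 78 were among the 17002 genes that passed the filter on low counts. The study asked how 2 substrains of the albino BALB/c mouse differ before and after adriamycin (ADR, doxorubicin), a drug that injures podocytes. Glomerulus-enriched RNA came from 8-week-old males of BALB/cAjcl, called AJcl here, and of BALB/cByJcl, called ByJcl, both inbred and with no engineered allele named in the labels. The AJcl baseline and ByJcl baseline groups were labelled untreated, and the AJcl Day 5 and ByJcl Day 5 groups were taken 5 days after 1 retro-orbital injection of ADR at 10 mg/kg, with 3 libraries in each of the 4 groups. The general treatment text mentions saline for control animals while the baseline samples carry the label untreated, so the baseline groups are described by their own label.

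The mitochondrial ribosome translates the few mRNAs that mitochondrial DNA encodes, all of which specify subunits of the oxidative phosphorylation complexes. Its RNAs come from the mitochondrial genome, but its proteins are encoded in the nucleus, made in the cytosol and imported. Some of them descend from the ribosome of the bacterial ancestor, and others were added in the mitochondrion. In the glomerulus these proteins serve endothelial cells, mesangial cells and podocytes, while the mitochondrion-rich proximal tubule next to it depends heavily on oxidative phosphorylation.

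Total counts per library ranged from 42198416 to 54687045, and the 78 genes took between 0.1617% and 0.3033% of them. Single genes held between 284 counts (Mrps28 in A-ADR2) and 5021 counts (Mrpl12 in A-ADR1). Most low counts were even numbers and the sources used here do not say whether reads or read pairs were counted, so a count may not stand for 1 fragment. Libraries are named by substrain (A or B), group (Ctrl for baseline, ADR for Day 5) and replicate number. The podocyte markers were abundant in every library, with a summed level of 9502 to 25802 CPM (counts scaled to a common library size with TMM factors) over 15 genes. A-ADR1, the first AJcl Day 5 library, was left out of the primary analysis by the study for reduced glomerular purity. The values below therefore rest on 11 libraries, with AJcl Day 5 at n = 2, and are given with A-ADR1 as well where it changes them. Each ByJcl baseline library was deeper than each AJcl baseline library, so depth and substrain cannot be told apart at baseline. Baseline and Day 5 counts were deposited as separate tables, so the processing of a table and ADR cannot be told apart either.

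A-ADR1 stood apart for these genes before any comparison was made. Its level was the highest of the 12 libraries for 75 of the 78 genes, against 22.7% of all tested genes, and the exceptions were Mrpl32, Mrps18b and Mrpl19. The ratio of A-ADR1 to the mean of A-ADR2 and A-ADR3 had a median of 1.61 over the 78 genes, from 1.08 for Mrpl19 to 2.50 for Mrpl12, and it was above 1.5 for 55 genes. The summed level of 15 proximal tubule markers was also highest in A-ADR1, at 13304 CPM, against 5042 and 3499 CPM in A-ADR2 and A-ADR3. The summed level of 78 nuclear oxidative phosphorylation genes was 16892 CPM in A-ADR1 against 8376 and 7573 CPM, and that of 76 cytosolic ribosomal protein genes was 26853 CPM against 15681 and 14455 CPM. The part of tubular RNA in the high values of A-ADR1 was not tested.

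**Figure D1:**
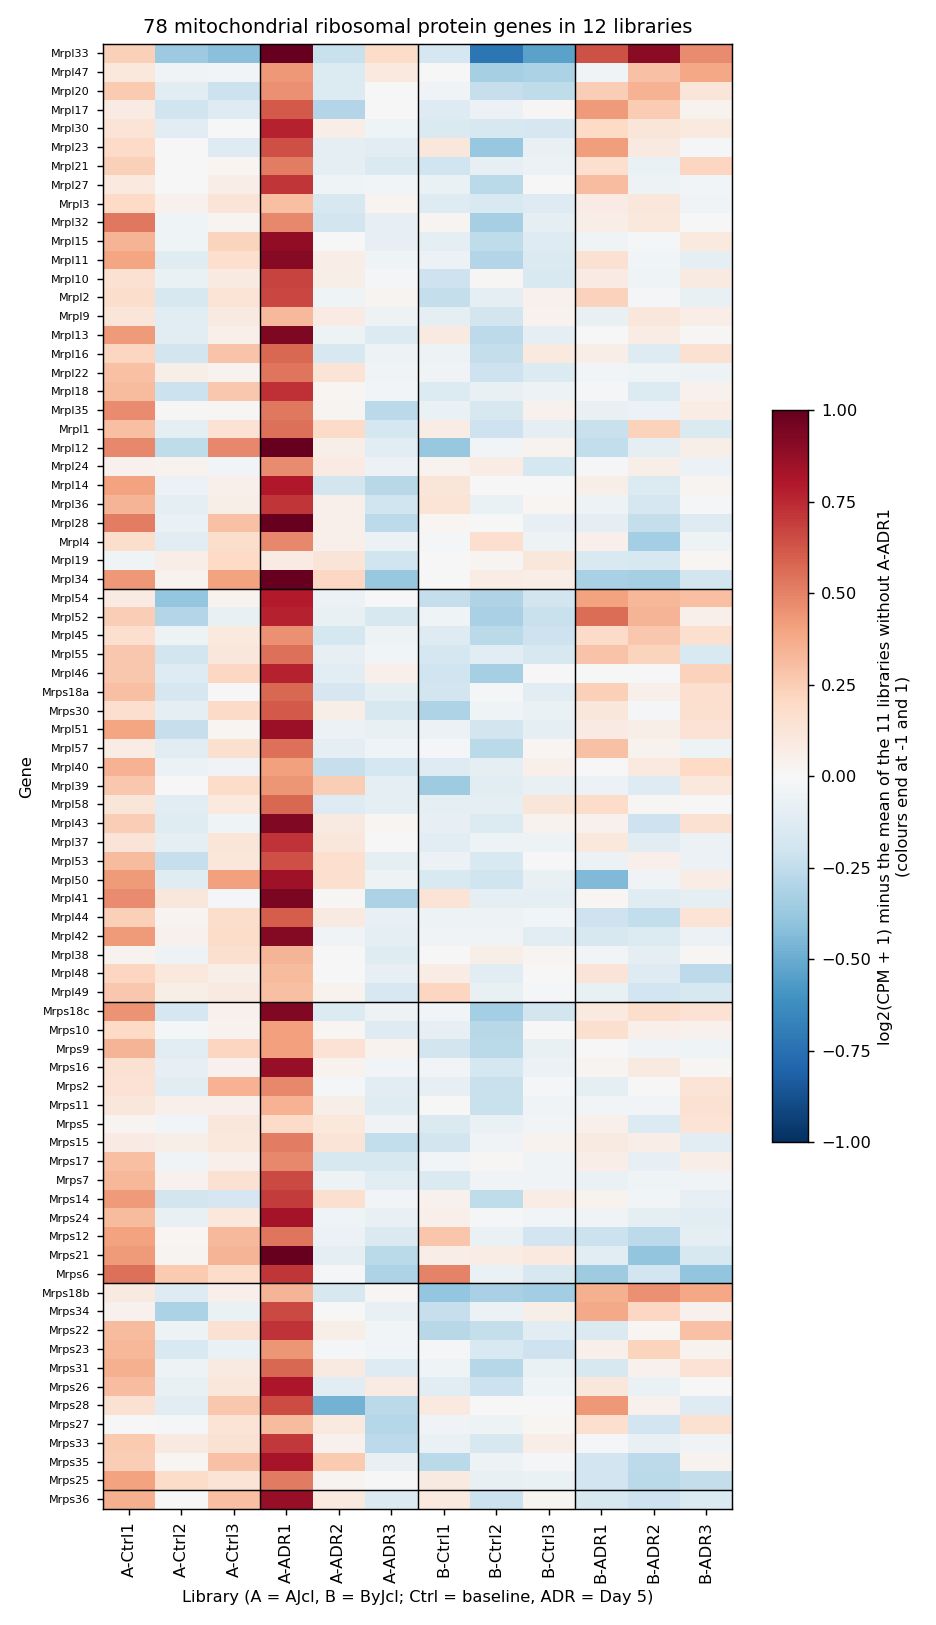
Colours show, for each of the 78 genes (rows) in each of the 12 libraries (columns), log2(CPM + 1) minus that gene's mean over the 11 libraries without A-ADR1. Lines separate the groups and, from top to bottom, large subunit proteins of bacterial type, large subunit proteins specific to mitochondria, small subunit proteins of bacterial type, those specific to mitochondria, and Mrps36; A-ADR1 is the highest library for 75 of the 78 genes.

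Summed over the 78 genes, the level was 2276, 1784 and 2031 CPM in the AJcl baseline libraries and 1803, 1719 and 1804 CPM in the ByJcl baseline libraries. At Day 5 it was 3030, 1874 and 1769 CPM in AJcl and 1961, 1892 and 1912 CPM in ByJcl. Without A-ADR1, the AJcl baseline libraries were spread the most widely, with 2030 ± 246 CPM (SD, n = 3), and overlapped those of ByJcl baseline at 1775 ± 48.8 CPM (n = 3). The ByJcl Day 5 libraries, at 1922 ± 35.6 CPM (n = 3), all lay above the ByJcl baseline libraries, and above AJcl Day 5 at 1822 ± 74.2 CPM (n = 2 without A-ADR1). Because the samples were bulk tissue, fewer cells of a type and less RNA per cell cannot be told apart in any of these levels. The proximal tubule marker sum varied more widely than the summed level, between 2753 and 9062 CPM in AJcl baseline, 854 and 5013 CPM in ByJcl baseline, and 776 and 3816 CPM in ByJcl Day 5.

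**Figure D2:**
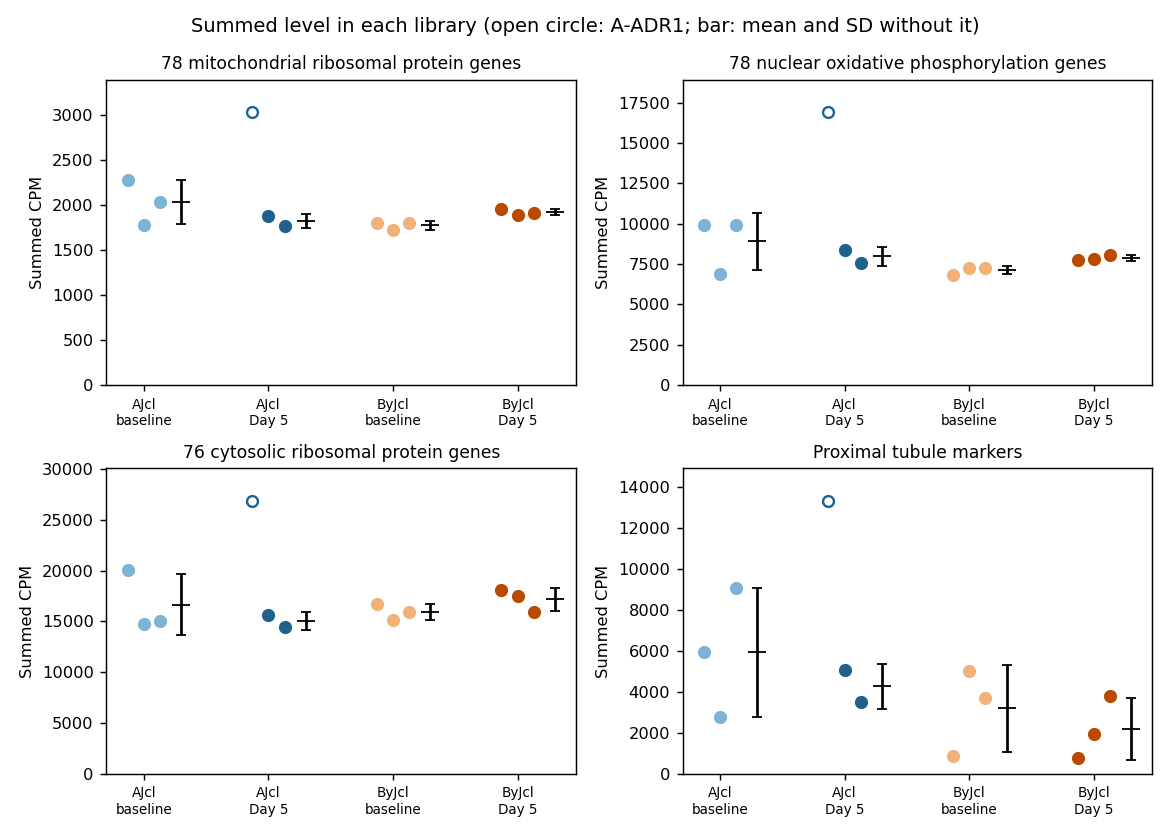
Summed CPM in each library for the 78 mitochondrial ribosomal protein genes, 78 nuclear oxidative phosphorylation genes, 76 cytosolic ribosomal protein genes and 15 proximal tubule markers. Filled points are libraries, the open circle is A-ADR1, and bars are the mean and SD without it; A-ADR1 is the highest library in all 4 panels.

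Per kilobase of annotated exon, the mean level over the 12 libraries ran from 0.872 to 23.5 CPM per kb with a median of 5.42. Mrpl34, Mrpl28 and Mrpl49, all large subunit proteins, had the highest levels per length at 23.5, 20.1 and 19.9 CPM per kb. Mrps27, Mrps35 and Mrps10, all small subunit proteins, had the lowest at 0.872, 1.29 and 1.46 CPM per kb. The length is the union of all exons that GENCODE annotates on GRCm39, from 660 bases in Mrpl34 to 14652 bases in Mrps35, so genes with long alternative exons rank low by construction. Mrpl10 and Mrpl12, which form the stalk that recruits translation factors to the large subunit, were high on this scale at 14.0 and 15.3 CPM per kb. Mrps36 carries a ribosomal symbol but is now known as a part of the alpha-ketoglutarate dehydrogenase complex of the citric acid cycle, and its level was 5.74 CPM per kb.

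Before treatment, nearly all of the genes were slightly lower in ByJcl than in AJcl, and none passed the test. The log2 fold change (log2FC, ByJcl relative to AJcl) was below 0 for 76 of the 78 genes, against 48.2% of all tested genes, with a median of -0.18 against 0.01 over all tested genes. None of the 78 was called at an adjusted p below 0.05 in edgeR's quasi-likelihood test, where 0.159% of all tested genes were called, and the smallest adjusted p among them was 0.559. DESeq2 also called 0 of them, against 0.594% of all tested genes. At an unadjusted p below 0.05 there were 11 genes, all lower in ByJcl, against 8.34% of all tested genes in either direction. The 3 libraries of ByJcl lay below all 3 of AJcl for 18 genes (23.1%, against 6.3% of all tested genes), and above them for 0 (8.22% of all tested genes). Scaling by library totals in place of TMM, which moved the median of all genes to -0.04, put the median of the 78 at -0.24.

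Mrps18b, a small subunit protein specific to mitochondria, had the smallest p at baseline. Its level was 11.4, 9.69 and 11.1 CPM in AJcl and 7.92, 8.34 and 8.15 CPM in ByJcl. The groups did not overlap, and the log2FC was -0.38 (SE 0.13) with an edgeR adjusted p of 0.559. Mrpl15, a large subunit protein, had 27.04, 20.4 and 24.9 CPM in AJcl and 19.7, 17.6 and 19.2 CPM in ByJcl, with a log2FC of -0.33 (SE 0.12, edgeR adjusted p = 0.573). The 2 genes with a log2FC above 0, Mrps34 at 0.06 and Mrpl17 at 0.04, had overlapping libraries and turned to -0.00141 and -0.01 when library totals replaced TMM. The level of Mrps34 is uncertain, since it shares 1110 exon bases with Nme3 on the same strand.

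The proximal tubule markers pointed the same way before treatment. All 15 were lower in ByJcl, their median log2FC was -0.89, and 1 of them had an unadjusted p below 0.05. The 15 podocyte markers were all higher, with a median of 0.22 and 1 such gene, and neither edgeR nor DESeq2 called a gene of either list. The 13 distal nephron markers were all lower, with a median of -1.15 and 3 genes at an unadjusted p below 0.05, and the 12 immune markers were all higher, with a median of 0.67 and 4 such genes. Again neither tool called any of them. The 78 nuclear oxidative phosphorylation genes had a median of -0.30 with 77 below 0, while the 76 cytosolic ribosomal protein genes had a median of -0.03 with 54 below 0. The part of tubular RNA or of the mix of cells in the baseline difference of the mitochondrial ribosomal protein genes was not tested.

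**Figure D3:**
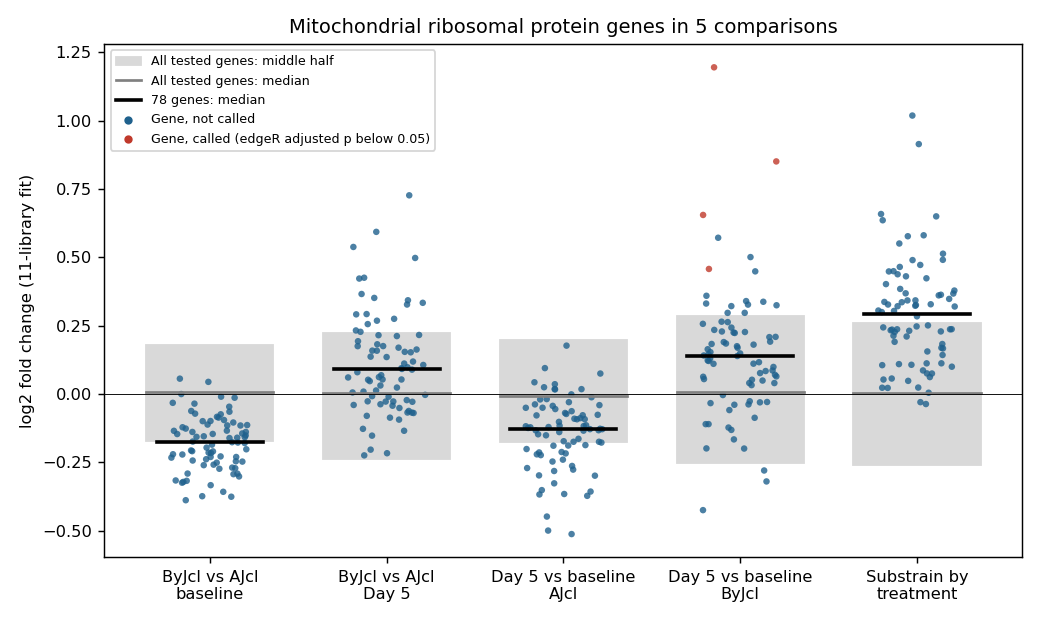
Each point is the log2 fold change of 1 of the 78 genes in 1 of 5 comparisons of the 11-library edgeR fit, red where it was called. Grey boxes span the quartiles of all 17002 tested genes and grey lines their medians; the median of the 78 genes (black) lies at -0.18, 0.09, -0.13, 0.14 and 0.29 from left to right.

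In ByJcl mice, ADR was followed by a rise of 4 genes and a fall of none. Mrps18b, Mrpl33, Mrpl54 and Mrpl45 were called higher at Day 5, which is 5.13% of the 78 against 5.75% of all tested genes called higher, so the share of calls was near the background. None was called lower, against 4.83% of all tested genes. Over all 78, the log2FC was above 0 for 59 genes (75.6%, against 50.8% of all tested genes), with a median of 0.14 against 0.01. The 3 Day 5 libraries lay above all 3 baseline libraries for 19 genes (24.4%, against 15.9% of all tested genes) and below them for 7 (8.97%, against 17.7%). At an unadjusted p below 0.05 there were 12 genes higher and 2 lower, 17.9% of the 78 against 26.8% of all tested genes.

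Mrps18b is 1 of 3 mitochondrial proteins related to the bacterial small subunit protein S18, and lies on chromosome 17 (GRCm39, 36221266 to 36227606, minus strand). Its level in ByJcl went from 7.92, 8.34 and 8.15 CPM at baseline to 13.9, 15.0 and 14.3 CPM at Day 5. All 3 Day 5 libraries were well above the baseline range, 1.80-fold by the fit, with a log2FC of 0.85 (SE 0.13) and an edgeR adjusted p of 0.00327. In AJcl the level was 13.8, 9.46 and 10.7 CPM at Day 5 against 11.4, 9.69 and 11.1 CPM at baseline, overlapping with or without A-ADR1. Mrps18b was called in all 20 alternative settings that gave a value in this comparison, with an adjusted p of at most 0.0181.

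The relatives of Mrps18b were higher in the same direction but did not pass the test. They are described after their values were seen. Mrps18c, the form that takes the place of the bacterial protein in the small subunit, had 19.8, 15.8 and 17.8 CPM at ByJcl baseline and 21.8, 23.0 and 22.5 CPM at Day 5. Mrps18a, which sits in the large subunit despite its symbol, had 24.0, 27.1 and 25.4 CPM and then 32.6, 28.6 and 31.0 CPM. Neither gene's groups overlapped, with log2FC of 0.36 (SE 0.16, edgeR adjusted p = 0.180) and 0.30 (SE 0.13, edgeR adjusted p = 0.161).

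Mrpl33, a small protein of the large subunit with a counterpart in bacteria, lies on chromosome 5 (31754279 to 31837542, plus strand). Its level in ByJcl went from 29.0, 19.4 and 22.2 CPM to 51.3, 61.8 and 45.8 CPM. This was 2.29-fold by the fit, with a log2FC of 1.19 (SE 0.23) and an edgeR adjusted p of 0.00882, the largest fold change of the 78 genes in this comparison. In AJcl it was 38.6, 25.1 and 24.2 CPM at baseline and 73.6, 27.8 and 37.3 CPM at Day 5, where the 73.6 CPM is A-ADR1 and the other values overlapped baseline. Mrpl33 was called in all 20 alternative settings that gave a value, with an adjusted p of at most 0.0439.

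Mrpl54, a large subunit protein specific to mitochondria, lies on chromosome 10 (81097082 to 81102768, minus strand). It went from 11.8, 11.3 and 12.4 CPM to 19.1, 18.1 and 17.7 CPM in ByJcl, with a log2FC of 0.65 (SE 0.14, edgeR adjusted p = 0.0160). Mrpl45, which sits near the exit of the peptide tunnel and helps to hold the ribosome at the inner membrane, lies on chromosome 11 (97206542 to 97232865, plus strand). It went from 15.8, 14.2 and 14.9 CPM to 20.0, 21.2 and 19.5 CPM, with a log2FC of 0.46 (SE 0.12, edgeR adjusted p = 0.0298). In AJcl without A-ADR1, Mrpl54 overlapped between baseline (15.0, 10.6 and 14.6 CPM) and Day 5 (13.6 and 14.2 CPM), and Mrpl45 had 19.7, 16.8 and 18.7 CPM at baseline and 15.3 and 16.7 CPM at Day 5 (log2FC -0.18, SE 0.13, edgeR adjusted p = 0.738). In A-ADR1 Mrpl45 was at 24.2 CPM, and with that library its log2FC in AJcl was 0.03. These calls were less stable than those of Mrps18b and Mrpl33. Mrpl54 was called in 15 of the 20 settings and Mrpl45 in 12, and both were lost with all 12 libraries, which left 2 calls among the 78 and called 7.21% of all tested genes. They were also lost without B-Ctrl1, without B-Ctrl2 or without B-ADR2. The fold changes themselves moved little, with a log2FC of 0.61 to 0.71 for Mrpl54 and 0.41 to 0.51 for Mrpl45 over the 20 settings.

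**Figure D4:**
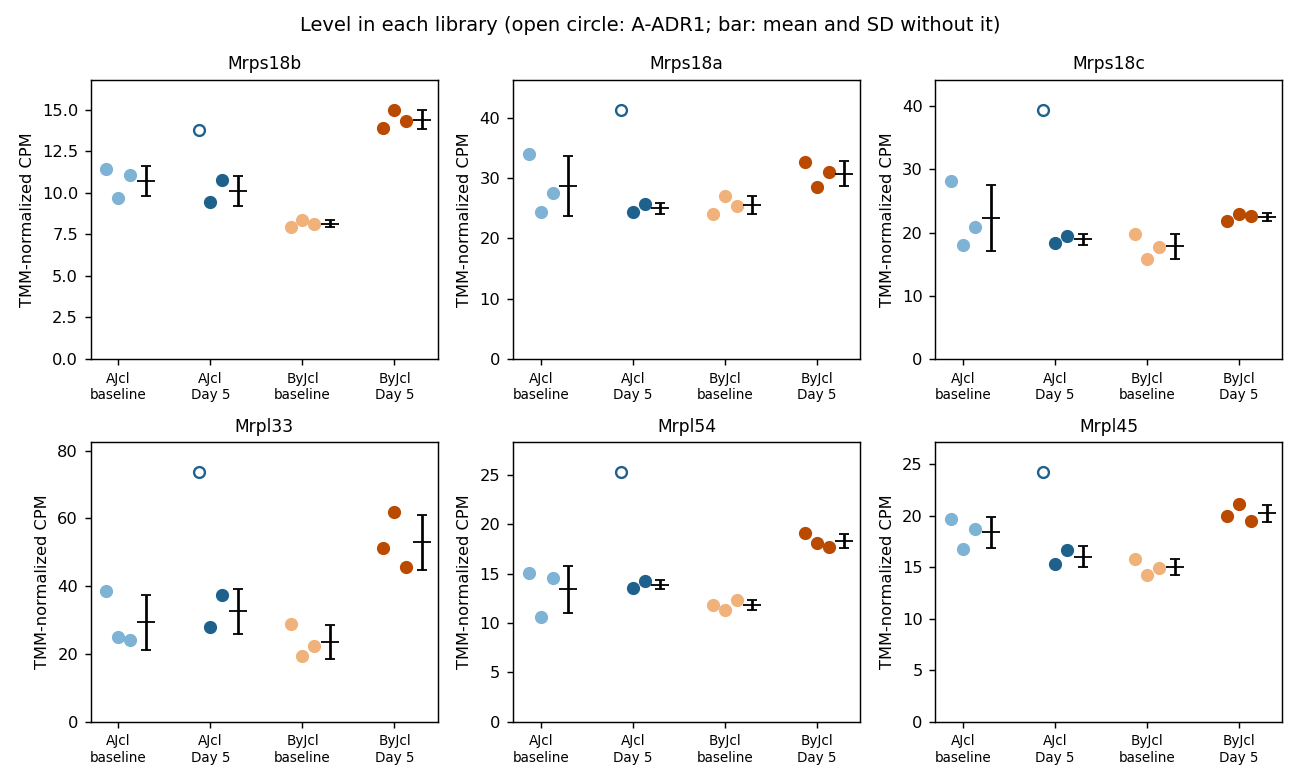
TMM-normalized CPM in each library for the 4 genes called higher at Day 5 in ByJcl (Mrps18b, Mrpl33, Mrpl54, Mrpl45) and for Mrps18a and Mrps18c, which were not called. Filled points are libraries, the open circle is A-ADR1, and bars are the mean and SD without it; for each of the 6 genes every ByJcl Day 5 library lies above every ByJcl baseline library.

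Just outside the threshold stood Mrpl30, with an edgeR adjusted p of 0.0504 and a log2FC of 0.34 (SE 0.10). DESeq2 on the same 11 libraries called 8 of the 78 genes higher in ByJcl, against 15.8% of all tested genes in either direction. It added Mrpl30, Mrpl52, Mrpl47 and Mrpl20 to the 4 genes above, which were named after their values were seen. The lower genes with the smallest p were Mrps21 and Mrps6, both small subunit proteins of bacterial type. Mrps21 went from 32.1, 32.2 and 32.8 CPM to 28.2, 23.1 and 27.2 CPM (log2FC -0.28, SE 0.12, edgeR adjusted p = 0.167). Mrps6 went from 36.8, 24.7 and 23.0 CPM to 19.9, 22.5 and 19.4 CPM (log2FC -0.43, SE 0.19, edgeR adjusted p = 0.171), with no overlap between its groups in spite of the wide baseline. Without B-Ctrl1, the highest of those libraries, its log2FC was -0.17. In AJcl without A-ADR1, Mrps6 was lower at Day 5 as well, with no overlap (log2FC -0.50, SE 0.21, edgeR adjusted p = 0.461). With A-ADR1 its log2FC in AJcl was -0.15, and its interaction log2FC without that library was 0.07. Mrps6 begins at the same position as Slc5a3 and shares 404 exon bases with it on the same strand, so its counts are uncertain.

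The called genes did not share 1 class of protein. The calls were 1 of 29 large subunit proteins of bacterial type, 2 of 22 large subunit proteins specific to mitochondria, 0 of 15 small subunit proteins of bacterial type and 1 of 11 small subunit proteins specific to mitochondria. The median log2FC of the 4 classes in this comparison was 0.14, 0.15, 0.11 and 0.17. Podocyte markers moved the other way in the same libraries, with 13 of 15 called lower and a median log2FC of -1.26. The 15 proximal tubule markers had a median of -0.49, with 12 below 0, 0 with an unadjusted p below 0.05 and 0 calls by edgeR or DESeq2. The median was 0.20 for the nuclear oxidative phosphorylation genes and 0.11 for the cytosolic ribosomal protein genes, with 1 call higher in each list. The part of a changed mix of glomerular cells in these values was not tested.

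Some of the called genes lie close to or across other genes, and the strand setting of the counting is not given in the sources used here. Mrps18b and Ppp1r10, which encodes a regulator of a protein phosphatase, start 280 bases apart on opposite strands and share 281 exon bases. Ppp1r10 had a log2FC of -0.02 (edgeR adjusted p = 0.957) in ByJcl. Apba3, whose start is 26 bases from that of Mrpl54 on the opposite strand, had -0.23 (edgeR adjusted p = 0.152). Matk, on the opposite strand, shares 4250 of the 4504 exon bases of Mrpl54. It had -0.66 (edgeR adjusted p = 0.503) at 7 to 56 counts per library. Mrpl33 shares 571 exon bases with Rbks on the opposite strand, and Rbks had 0.41 (edgeR adjusted p = 0.259). AI839979, which shares 3 exon bases with Mrpl33 on the opposite strand, had 0.84 (SE 0.28, edgeR adjusted p = 0.0762) at 59 to 177 counts per library. Gm16279, which shares 898 exon bases with Mrps18b on the opposite strand, had -0.91 (edgeR adjusted p = 0.366) at 7 to 33 counts. None of these neighbours was called, and Mrpl45 shares no exon with another counted gene. Over all 78 genes, 42 shared exon bases with another counted gene, 5 of them on the same strand, and 33 started within 1000 bases of a counted gene on the opposite strand. With annotated genes outside the count tables this was 46, including Mrpl45, which starts 142 bases from Gm31005. Gm43809, also outside the count tables, starts 3 bases from Mrpl33. It shares 261 exon bases with Mrpl33 on the same strand, so their reads cannot be told apart there.

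In AJcl mice, the direction of the same comparison was decided by 1 library. Without A-ADR1, 69 of the 78 genes had a log2FC below 0 at Day 5 (88.5%, against 51.3% of all tested genes), with a median of -0.13 against -0.01 over all tested genes. None was called by edgeR, where 0.312% of all tested genes were called, and 7 genes had an unadjusted p below 0.05, all lower, against 9.8% of all tested genes. DESeq2 called 0, against 1.77% of all tested genes. Both remaining Day 5 libraries lay below all 3 baseline libraries for 18 genes (23.1%, against 12.3% of all tested genes) and above them for 0 (13.3% of all tested genes). With A-ADR1 the median was 0.12 and 66 genes had a log2FC above 0, so the sign differed for 57 of the 78 genes, and again 0 were called, against 0.325% of all tested genes.

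Other lists moved with these genes in AJcl without A-ADR1. The nuclear oxidative phosphorylation genes had a median of -0.16 with 75 of 78 below 0, and the cytosolic ribosomal protein genes a median of -0.12 with 71 of 76 below 0. The podocyte markers had a median of -0.38 with 14 of 15 below 0 and 6 at an unadjusted p below 0.05, and the proximal tubule markers a median of -0.35 with 13 of 15 below 0 and 0 at such a p. EdgeR called none of these genes. The part of the mix of cells in the AJcl values was not tested.

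Mrps21 and Mrpl14, a large subunit protein of bacterial type, had the smallest p among the lower genes. Mrps21 had 41.5, 31.2 and 38.9 CPM at AJcl baseline and 28.6 and 25.2 CPM in A-ADR2 and A-ADR3, but 65.1 CPM in A-ADR1. Its log2FC was -0.45 (SE 0.14, edgeR adjusted p = 0.276) without A-ADR1 and 0.09 with it. Mrpl14 had 36.1, 25.8 and 28.1 CPM at baseline, 23.6 and 22.1 CPM in A-ADR2 and A-ADR3 and 47.7 CPM in A-ADR1, with a log2FC of -0.37 (SE 0.15, edgeR adjusted p = 0.412) without that library and 0.06 with it. Among the higher genes, Mrpl33 had a log2FC of 0.18 (SE 0.25, edgeR adjusted p = 0.880) and Mrps34 of 0.09 (SE 0.15, edgeR adjusted p = 0.892), both with overlapping libraries.

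At Day 5 the 2 substrains differed the other way from baseline when A-ADR1 was left out, and no gene passed edgeR's test. The log2FC of ByJcl relative to AJcl was above 0 for 53 of the 78 genes (67.9%, against 50.3% of all tested genes), with a median of 0.09 against 0.00194 over all tested genes. The ByJcl libraries lay above both AJcl libraries for 23 genes (29.5%, against 15.1% of all tested genes) and below them for 3 (3.85%, against 17.2%). The 9 genes with an unadjusted p below 0.05 were all higher in ByJcl, against 14.0% of all tested genes, and edgeR called 0 of the 78 and 0.165% of all tested genes. With A-ADR1 the median was -0.17 and 62 genes had a log2FC below 0 (50.7% of all tested genes), so the sign differed for 37 genes. The proximal tubule markers were lower in ByJcl at this time too, 15 of 15 with a median of -0.90 without A-ADR1, and 0 passed either edgeR's or DESeq2's test or an unadjusted p of 0.05. The 13 distal nephron markers were all lower, with a median of -1.50 and 5 genes at an unadjusted p below 0.05. Of the 15 podocyte markers, 14 were lower, with a median of -0.65 and 10 such genes. The 12 immune markers had a median of 1.04, with 10 above 0 and 4 such genes. EdgeR called no marker of these 4 lists, while DESeq2 called 4 podocyte markers and 1 distal nephron marker (Calb1) lower and 1 immune marker (Cd68) higher. The 9 tested mesangial or smooth muscle markers were all above 0 with a median of 0.23, and Tagln among them was called higher by edgeR (log2FC 1.15, SE 0.18, edgeR adjusted p = 0.0436) and by DESeq2. The median was 0.23 for the cytosolic ribosomal protein genes, with 75 of 76 above 0, and 0.07 for the nuclear oxidative phosphorylation genes, with 53 of 78 above 0. The part of the mix of cells in the Day 5 values was not tested.

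**Figure D5:**
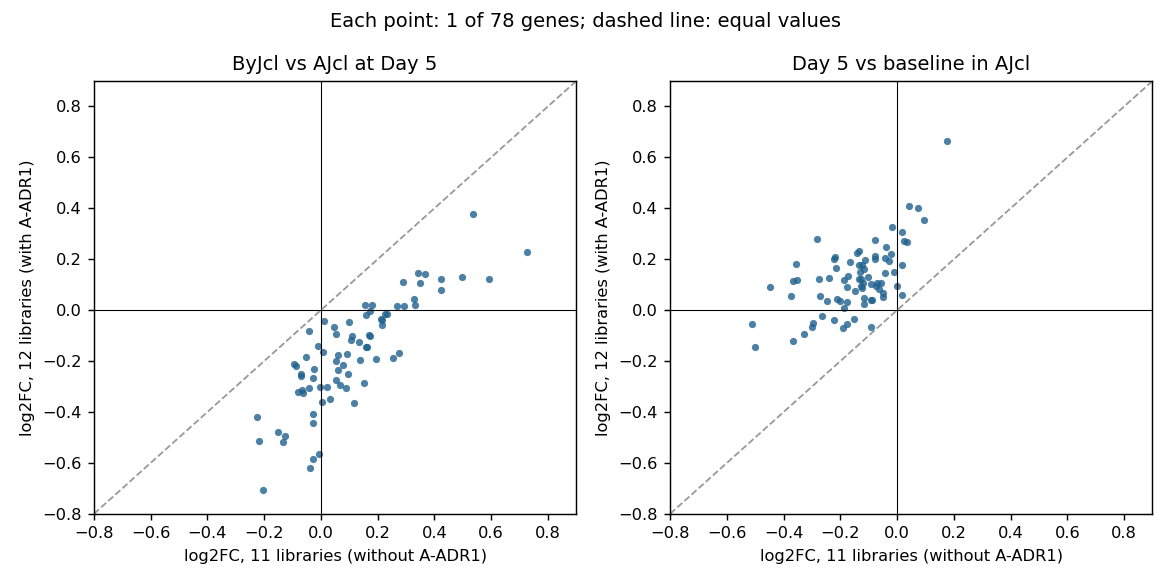
Log2 fold change of each of the 78 genes from the fit with 11 libraries (x axis) and with all 12 (y axis) for ByJcl relative to AJcl at Day 5 (left) and Day 5 relative to baseline in AJcl (right). The dashed line marks equal values; adding A-ADR1 moves the median from 0.09 to -0.17 on the left and from -0.13 to 0.12 on the right.

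Mrps18b again had the smallest p, with 13.9, 15.0 and 14.3 CPM in ByJcl Day 5 and 9.46 and 10.7 CPM in A-ADR2 and A-ADR3. Its log2FC was 0.54 (SE 0.14) with an edgeR adjusted p of 0.165, and the value of A-ADR1, 13.8 CPM, was just under the lowest ByJcl library. DESeq2 called Mrps18b as the only 1 of the 78 (log2FC 0.55, SE 0.15, adjusted p = 0.0149), where it called 3.26% of all tested genes. With all 12 libraries DESeq2 did not call it (log2FC 0.38, adjusted p = 0.148). Mrpl33 was 45.8 to 61.8 CPM in ByJcl and 27.8 and 37.3 CPM in A-ADR2 and A-ADR3 (log2FC 0.73, SE 0.25, edgeR adjusted p = 0.259), but 73.6 CPM in A-ADR1, with which its log2FC was 0.23. The lower genes with the smallest p were small subunit proteins specific to mitochondria. Mrps25 had 20.8, 19.7 and 20.1 CPM in ByJcl and 24.3 and 23.9 CPM in AJcl (log2FC -0.23, SE 0.12, edgeR adjusted p = 0.440), and Mrps35 had overlapping libraries (log2FC -0.22, SE 0.15, edgeR adjusted p = 0.542). With A-ADR1 these were -0.42 and -0.51, still not called, and leaving out A-ADR2 put Mrps35 at -0.056.

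The interaction term asks whether the change at Day 5 differed between the substrains, and it shares all its libraries with the comparisons above. Its log2FC (change in ByJcl minus change in AJcl) was above 0 for 76 of the 78 genes (97.4%, against 50.3% of all tested genes), with a median of 0.29 against 0.00283. EdgeR called none of the 78 and 0.0% of all tested genes, and the smallest adjusted p among the 78 was 0.620. At an unadjusted p below 0.05 there were 13 genes, all above 0, against 8.02% of all tested genes. The 78 nuclear oxidative phosphorylation genes were all above 0 with a median of 0.37, and 75 of the 76 cytosolic ribosomal protein genes were above 0 with a median of 0.27. All 15 podocyte markers were below 0, with a median of -0.87 and 12 at an unadjusted p below 0.05. EdgeR called no gene of these 3 lists, and DESeq2 called 1 podocyte marker (Thsd7a). The part of the mix of cells in the interaction was not tested. With A-ADR1 the median of the mitochondrial ribosomal protein genes was 0.03 and 43 of the 78 lay above 0. A different course in the 2 substrains was therefore not detectable for single genes by edgeR, and the size of the median rested on leaving out A-ADR1. DESeq2 called 1 of the 78, Mrps18b, and 0.135% of all tested genes. Mrps18b had the smallest p, with a log2FC of 0.91 (SE 0.19, edgeR adjusted p = 0.620), followed by Mrpl45 with 0.64 (SE 0.17, edgeR adjusted p = 0.620). The genes below 0 were Mrpl4 at -0.04 (SE 0.18) and Mrpl19 at -0.03 (SE 0.18), both large subunit proteins of bacterial type with overlapping libraries in all 4 comparisons between groups. The stalk proteins Mrpl10 and Mrpl12 had 0.21 (SE 0.14) and 0.34 (SE 0.27), and Mrps36 had 0.11 (SE 0.22). With A-ADR1 all 3 turned below 0, to -0.015, -0.21 and -0.25.

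The other genes of mitochondrial translation gave 0 calls in all 5 comparisons with edgeR. Over all tested genes, edgeR called 10.6% in ByJcl at Day 5 and at most 0.312% in any other comparison. These were 5 mitochondrial ribosomal proteins under other symbols, 13 translation factors, 25 assembly factors of the ribosome, 20 mitochondrial tRNA synthetases and 15 genes that express mitochondrial DNA. In ByJcl at Day 5, 4 of the 5 ribosomal proteins under other symbols had a log2FC above 0 with a median of 0.14, close to the 78 genes. The translation factors, assembly factors and tRNA synthetases had medians of -0.09, -0.03 and -0.11 in the same comparison, with 3 of 13, 10 of 25 and 7 of 20 above 0. At an unadjusted p below 0.05 there were 1, 5 and 3 genes in these lists, and 2 of the 5 ribosomal proteins under other symbols. Over all tested genes the share was 26.8%. In this comparison DESeq2 called 1 of those 5 (Chchd1, higher), 0 translation factors and 2 assembly factors (1 higher, 1 lower). It also called 2 tRNA synthetases (both lower) and 1 of the 15 genes that express mitochondrial DNA (lower), against 15.8% of all tested genes. The interaction medians of the 3 lists were -0.02, 0.07 and -0.03. The 13 mRNAs that mitochondrial DNA encodes were looked for by symbol. Of these, 0 were among the counted gene symbols, so they could not be analysed here.

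Among 9 regulators of mitochondrial biogenesis, 1 rose and 1 fell in ByJcl at Day 5 by edgeR's test, which called 0 in the other 4 comparisons. Over all tested genes, edgeR called 5.75% higher and 4.83% lower in ByJcl. DESeq2 also called Pprc1, a related coactivator, higher in ByJcl, where it called 15.8% of all tested genes. Between substrains at Day 5, where DESeq2 called 3.26% of all tested genes, it called Myc higher and Ppargc1b lower in ByJcl. Ppargc1b, a coactivator that drives mitochondrial genes, had 24.9, 24.1 and 21.5 CPM at ByJcl baseline and 13.8, 12.6 and 14.7 CPM at Day 5. Its groups were well separated, with a log2FC of -0.75 (SE 0.12, edgeR adjusted p = 0.00362). Myc, a growth-related transcription factor that acts on many ribosome genes, had 2.30, 2.97 and 3.68 CPM at baseline and 6.02, 14.2 and 9.68 CPM at Day 5 (log2FC 1.76, SE 0.32, edgeR adjusted p = 0.00785). In AJcl Ppargc1b was 21.8, 24.8 and 25.5 CPM at baseline and 22.1, 21.5 and 21.6 CPM at Day 5, with A-ADR1 first. Its groups overlapped only with A-ADR1. Myc in AJcl was 2.39, 3.18 and 3.07 CPM and then 4.79, 3.53 and 5.73 CPM in the same order. Each AJcl Day 5 library thus lay above each AJcl baseline library for Myc, with or without A-ADR1, though Myc was not called there.

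The genes are scattered over 17 chromosomes, with 11 of the 78 on chromosome 11 and 8 on chromosome 17. Promoter windows of 250 bases before the annotated start, from RefSeq on GRCm38.p6, were given for 69 of them (75 windows). The letters GCATGCGC, the core recognised by NRF1, a regulator of nuclear genes for mitochondria, were found on either strand in 8 windows (10.7%, against 2.26% of all 32851 windows). The letters CCGGAAG, recognised by ETS factors such as GABP, were found in 18 windows (24.0%, against 6.91%). Only 2 genes had both motifs, and 24 had at least 1. No window was given for Mrpl54. Of the 3 called genes with a window, 2 held the NRF1 letters and 0 the ETS letters.

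The sites of the NRF1 letters are printed because they are the feature that Mrps18b and Mrpl33 had in common with 6 other members and that the rule for membership did not use. Each is 30 bases on the strand of the gene, 5′ to 3′, with the motif in capitals as GCATGCGC or, read from the other strand, GCGCATGC. The windows matched GRCm39 exactly once each, and the coordinates are from that build. The Mrps18b site is at chr17:36227537-36227566 (minus strand), with 215 bases between motif and start, and the Mrpl33 site at chr5:31771265-31771294 (plus strand), with 4 bases between motif and start. For both genes this RefSeq start, and the site itself, lie inside the gene as GENCODE annotates it on GRCm39. The printed sites of Mrpl17, Mrpl32, Mrpl39 and Mrpl9 also lie inside the annotated gene. Where a window held several matches, as in Mrpl32, Mrpl39 and Mrpl9 (where matches on both strands overlap), 1 is shown.
Mrps18b: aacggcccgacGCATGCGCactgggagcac
Mrpl33: agccttctaccggaacccGCGCATGCcccg
Mrpl10: cccagctccacGCATGCGCatagcggccct
Mrpl17: agccacgcgccgagttactGCGCATGCgtc
Mrpl22: ggcctcggactGCGCATGCgtatagtcagc
Mrpl39: aggagaggcgcGCATGCGCccccgcgtggc
Mrpl9: ggcgcagctgcGCATGCGCggggtccttct
Mrpl32: gcggacttaacGCATGCGCtcagcccgcgt
A match of letters is a description of the window and not a measured binding site. The sites were chosen for printing with the calls of Mrps18b and Mrpl33 known, so nothing about the calls is read from them. The stalk gene Mrpl10, which also holds the letters, had, in ByJcl at Day 5, a log2FC of 0.19 (SE 0.09, edgeR adjusted p = 0.225).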

How the data were processed

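Gene counts were deposited by the authors as whole numbers for 26264 gene symbols, baseline and Day 5 in separate tables, neither normalized nor pooled. Per the labels, reads of poly(A)-selected, strand-specific libraries were processed with FastQC, Trimmomatic, STAR (GRCm39) and featureCounts. The annotation and the strand and pair settings of the counting are not given in the sources used here. Of the counts from 1 to 49, between 77.08% and 82.85% were even in each library, as they would be if both reads of a pair were counted, so totals and counts may overstate the number of fragments. Halving all counts was one of the alternatives. Replicate libraries differed by more than sampling noise (chi-square per degree of freedom of 44.57 or more), so none was a copy of another.

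Counts were analysed in R 4.3.3 with edgeR 4.0.16. The filterByExpr rule with the 4 groups left 17002 genes. TMM scaling and a quasi-likelihood fit with 1 coefficient per group (11 libraries, 7 residual degrees of freedom) gave 5 contrasts, with Benjamini-Hochberg adjustment over all tested genes and calls below 0.05. The study used DESeq2, run here as an alternative (1.42.0). P-values measure the spread between these animals. Levels are TMM-normalized CPM, and SEs are from the fit. Overlap of groups was judged on single libraries. The scripts were tested on simulated data. Alternatives were RLE factors, library totals, 2 other filters, DESeq2, all 12 libraries, each library left out, a replicate block, halved counts and fits by time point. DESeq2 on all 12 libraries was added after seeing the data. Coordinates and exon lengths are from GENCODE on GRCm39, in which all 78 symbols matched.

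The members and the gene lists were chosen with earlier results of these data known. The lists of nuclear oxidative phosphorylation and cytosolic ribosomal protein genes were formed by symbol pattern after values were seen. Genes named are, per contrast and direction, up to 6 calls, filled to 2 by smallest p where calls were fewer, with the 3 highest and 3 lowest by level per length, Mrpl10, Mrpl12, Mrps36 and Mrps6. Endothelial, mesangial, immune and distal nephron markers were read as well. In ByJcl at Day 5, by edgeR, 1 of 12 endothelial markers rose and 2 fell, and 1 of 9 tested mesangial or smooth muscle markers (Tagln) and 1 of 12 immune markers (Cd68) rose, while 0 of 13 distal nephron markers were called. DESeq2 called 2 endothelial markers higher and 3 lower, Tagln and Cd68 higher, 1 other immune marker (Csf1r) lower and 0 distal nephron markers. Python 3.11.15 with pandas 2.3.3 was used for the tables and matplotlib 3.10.9 for the figures.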

Additional observations from a re-analysis of the deposited data

Results flagged for a closer look

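Mrps18b differed between the substrains in its change at Day 5 by DESeq2's test of the interaction on 11 libraries, with a log2FC of 0.94 (SE 0.20, adjusted p = 0.0101), where DESeq2 called 0.135% of all tested genes. EdgeR's test of the same term gave 0.91 (SE 0.19) with an adjusted p of 0.620, and DESeq2 on all 12 libraries made no interaction call among the 78 genes. The level was higher at Day 5 than at baseline in 3 of 3 ByJcl libraries, while the AJcl libraries overlapped.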

How the results depend on the processing

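The baseline median stayed below 0 over 21 alternative settings and the ByJcl Day 5 median above 0 over the 20 that gave a value, none of which called a gene lower in ByJcl. DESeq2 on 11 libraries called 1 gene at Day 5 between substrains, 8 genes in ByJcl and 1 in the interaction. With all 12 libraries, edgeR and DESeq2 each left 2 calls in ByJcl, where they called 7.21% and 12.0% of all tested genes. The median turned to -0.17 at Day 5 between substrains by both tools, and to 0.12 (edgeR) and 0.14 (DESeq2) in AJcl, while the interaction median was 0.029 and 0.015. In AJcl, Mrpl14 then had a log2FC of 0.056 and 0.076 and Mrps21 of 0.092 and 0.11. The summed level of AJcl Day 5 was 2224 CPM with A-ADR1. With library totals the summed level was 1723 CPM at ByJcl baseline and 1959 CPM at ByJcl Day 5, and the baseline log2FC was -0.013 for Mrpl17 and -0.00141 for Mrps34. For each of these the cause was not tested, beyond the added library or the scaling itself.

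Leaving out each library in turn gave 2 to 7 calls in ByJcl (2 without B-Ctrl1, B-Ctrl2 or B-ADR2, and 7 without A-Ctrl1) and 0 in the other comparisons. The share of all tested genes called in ByJcl was 4.97%, 4.32% and 4.05% without B-Ctrl1, B-Ctrl2 and B-ADR2, and 12.1% without A-Ctrl1. It also gave log2FC of -0.032 to 0.12 for Mrps34 at baseline, -0.10 to 0.41 for Mrpl33 in AJcl, and, in the interaction, -0.15 to 0.14 for Mrpl19 and -0.12 to 0.073 for Mrpl4. Mrpl14 in AJcl was at -0.24 without A-Ctrl1, Mrps34 in AJcl ranged from 0.0067 to 0.16 and Mrpl17 at baseline from 0.00086 to 0.097 (lowest without A-Ctrl2 and highest without A-Ctrl1 for both). Medians kept their sign, at 0.04 (without A-ADR3) to 0.12 at Day 5 between substrains, -0.20 to -0.07 (without A-Ctrl1) in AJcl and 0.085 (without B-Ctrl2) to 0.17 in ByJcl.

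Libraries that share a replicate number come from different animals, and their deviations from the group means correlated between -0.357 and 0.507. Libraries with different numbers were not correlated in this way. These values therefore cannot show whether a number marks a shared batch. With a replicate block there were 6 calls in ByJcl, against 9.36% of all tested genes, and 0 elsewhere, and the medians were -0.17, 0.05, -0.09, 0.14 and 0.24 in the order of the plot of 5 comparisons. The number of libraries, 2 or 3 per group, limits the precision. Of the values of single genes under alternatives, 415 kept their direction and side of the threshold, 13 were no longer called, 2 became called and 18 changed sign.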
